A study of Mus with 96 samples.

Results

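The genes of NAD synthesis and use described here are 8 members, Nampt, Nmrk1, Nnmt, Qprt, Nadsyn1, Nadk, Sirt1, and Parp1, chosen by name from the 55487 genes of a liver count table. All 8 members were among the 15548 genes with at least 100 counts summed over the 96 libraries, which were the genes tested. Livers were collected from mice with the genotypes Hep-Bmal1KO (AlbCre/+/Bmal1flx/flx) and Hep-Bmal1WT (Alb+/+/Bmal1flx/flx), so that both genotypes carried the floxed Bmal1 allele and only the knockouts carried Cre, driven by the albumin promoter in hepatocytes. Mice were 8 to 10 weeks old and of both sexes, were kept in 12 h of light and 12 h of dark at 22 °C, and received normal chow (NC) or cdHFD (a high-fat diet that lacks choline, with 60% fat and 2% cholesterol) for 2 weeks. Each combination of genotype and diet held 24 mice, 4 at each Zeitgeber time (ZT, hours after lights on) of 2, 6, 10, 14, 18, and 22. Expression was measured by BRB-seq, which counts reads from the 3′ end of mRNA, and levels are given below in CPM (counts relative to the TMM-scaled total of the library), with the SD across mice.

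NAD is a carrier of electrons and the substrate of enzymes that cleave it and release nicotinamide. Hepatocytes make it from tryptophan through the kynurenine route and quinolinic acid, from nicotinic acid, and by salvage of nicotinamide or nicotinamide riboside. Nampt encodes the rate-limiting enzyme of nicotinamide salvage and is a known target of the circadian clock, and Nmrk1 encodes a nicotinamide riboside kinase. Nnmt encodes the methyltransferase that diverts nicotinamide from salvage, Qprt the enzyme that takes quinolinic acid into NAD synthesis, Nadsyn1 the amidating synthetase of the last step, and Nadk the cytosolic kinase that makes NADP. Sirt1, a deacetylase, and Parp1, a poly-ADP-ribose polymerase, consume NAD.

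Depth ranged from 1861740 to 9718615 counts on genes, with a median of 6412078. The labels name each library by a letter and a number, and each of the 12 numbers held libraries of a single genotype and diet, so a difference that goes with this number and the group cannot be told apart. Whether the numbers also go with ZT was not examined, which limits the rhythms and the comparisons at single ZTs. The 3′ tags of Arntl, the gene symbol of Bmal1, may lie outside the deleted part, so its level was no firm check of the labels. Averaged over the day, it did not pass the test between genotypes on NC (log2 fold change 0.03, adjusted p = 0.972, edgeR) or on cdHFD (−0.49, adjusted p = 0.106, edgeR). This average holds differences of opposite sign. On NC, its mean was 20.2 CPM in Hep-Bmal1WT and 9.83 CPM in Hep-Bmal1KO at ZT2, and 0.75 and 5.77 CPM at ZT10. In 10 clock genes, Arntl among them, and in 20 other genes that differed between the genotypes at the other ZTs, 7 libraries lay nearer the opposite genotype at the same ZT and diet. These were 2 labelled Hep-Bmal1WT and 2 labelled Hep-Bmal1KO on NC, and 2 labelled Hep-Bmal1WT and 1 labelled Hep-Bmal1KO on cdHFD. Whether these libraries carry a wrong label was not tested. Results are given with all libraries first, and without these 7 wherever that changed a call. Since the 7 were chosen by expression that differs between the genotypes, leaving them out widens genotype differences by construction (calls by genotype on NC rose from 1948 to 2650 genes), and p-values without them are descriptions only.

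On NC, both salvage genes were lower in livers labelled Hep-Bmal1KO, and no other member passed the test. Nampt averaged 103 ± 50.1 CPM in Hep-Bmal1WT and 64.4 ± 19.5 CPM in Hep-Bmal1KO (SD, n = 24 each), a fall of 1.48-fold (log2 fold change −0.57, SE 0.12, adjusted p = 0.000769). Nmrk1 averaged 37.9 ± 20.8 CPM in Hep-Bmal1WT and 22.0 ± 12.5 CPM in Hep-Bmal1KO, a fall of 1.62-fold (log2 fold change −0.70, SE 0.13, adjusted p = 0.000198). ZT entered edgeR's quasi-likelihood model as a factor, and p-values were adjusted over the 15548 genes by the Benjamini-Hochberg method, here and below unless another source is named. The 2 members called compare with 12.5% of all genes tested, of which 5.45% were lower. Without the 7 libraries, the log2 fold changes were −0.71 for Nampt and −0.84 for Nmrk1. Among females alone, neither passed (Nampt −0.38, adjusted p = 0.198, and Nmrk1 −0.52, adjusted p = 0.0862), while the test of a genotype difference between the sexes did not pass for either gene (adjusted p = 0.675 and 0.748).

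The difference in Nampt on NC was called at ZT14, early in the dark phase. At ZT14, the 4 Hep-Bmal1WT mice had 126, 156, 228, and 235 CPM and the 4 Hep-Bmal1KO mice 57.3, 72.7, 78.99, and 79.6 CPM. The groups did not overlap, and the log2 fold change was −1.37 (SE 0.24, adjusted p = 0.000836), in a comparison in which 2.97% of all genes were called. At ZT10, the Hep-Bmal1WT mice had 98.5, 103, 126, and 133 CPM against 37.9, 38.9, 55.9, and 125 CPM in Hep-Bmal1KO. The highest of these knockout-labelled livers was 1 of the 7 libraries, and the difference of −0.84 (SE 0.24, adjusted p = 0.0699) became −1.38 (adjusted p = 6.16e-06) without them. With all libraries, the difference at ZT10 passed in DESeq2 (−0.84, adjusted p = 0.0181) and in edgeR with sex as a covariate (−0.89, adjusted p = 0.00973). At ZT2 the genotypes lay together, with 45.1, 47.6, 53.1, and 62.9 CPM in Hep-Bmal1WT and 48.4, 48.9, 49.6, and 67.3 CPM in Hep-Bmal1KO (log2 fold change 0.03, SE 0.25, adjusted p = 0.994).

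Nmrk1 on NC differed at ZT10 and ZT14, the last ZT of the light phase and the first of the dark phase. At ZT10, where 1.4% of all genes were called, the Hep-Bmal1WT mice had 65.2, 71.02, 87.7, and 88.5 CPM against 15.6, 19.5, 28.2, and 75.9 CPM in Hep-Bmal1KO (log2 fold change −1.18, SE 0.30, adjusted p = 0.0306). The value of 75.9 CPM came from the same knockout-labelled library as the high Nampt value, and was the only 1 of the 4 within the Hep-Bmal1WT range. Without the 7 libraries, the difference at ZT10 was −1.88 (adjusted p = 1.34e-06). At ZT14, Hep-Bmal1WT mice had 38.7, 39.6, 40.1, and 49.9 CPM and Hep-Bmal1KO mice 13.5, 16.01, 19.2, and 27.6 CPM, again without overlap (log2 fold change −1.14, SE 0.31, adjusted p = 0.0294). Over the 48 pairs of member and ZT on NC, 3 were called, and 6 without the 7 libraries, where Nampt at ZT10 (−1.38), Nampt at ZT18 (−0.92), and Nmrk1 at ZT18 (−0.94) were added. At the other ZTs on NC, edgeR called 0.167% of all genes at ZT2, 0% at ZT6, 0.00643% at ZT18, and 0.457% at ZT22. The Nmrk1 calls were lost when replicate 1, 2, or 4 was left out, with adjusted p from 0.236 to 0.393 at ZT10 and from 0.0604 to 0.31 at ZT14.

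**Figure D1:**
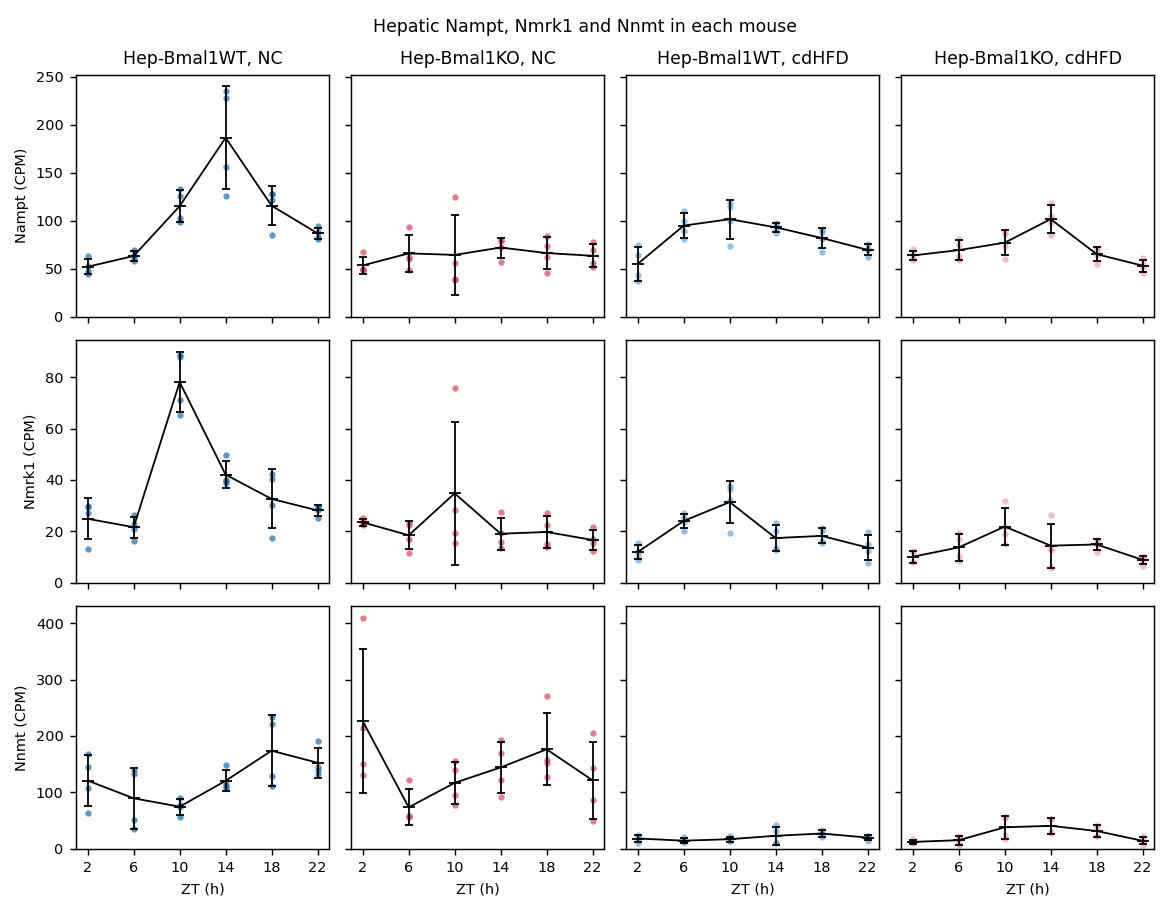
Hepatic Nampt, Nmrk1, and Nnmt in CPM (vertical axes) against ZT in hours, 1 point per mouse, with the mean and SD of 4 mice as lines and bars, for each genotype and diet. Nampt in Hep-Bmal1WT on NC reached a mean of 186 CPM at ZT14, Nmrk1 a mean of 78.1 CPM at ZT10, and Nnmt reached at most 55.8 CPM on cdHFD.

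On cdHFD, Nmrk1 and Nadk were lower in Hep-Bmal1KO, 2 of 8 members where 9.67% of all genes were called and 4.92% were lower. Nmrk1 averaged 19.5 ± 7.98 CPM in Hep-Bmal1WT and 14.0 ± 6.29 CPM in Hep-Bmal1KO (SD, n = 24 each; log2 fold change −0.45, SE 0.12, adjusted p = 0.00646), and its call was lost when replicate 2 was left out (−0.38, adjusted p = 0.118). Nadk averaged 251 ± 41.3 CPM against 214 ± 31.1 CPM (log2 fold change −0.22, SE 0.05, adjusted p = 0.000729). Nampt, with 82.8 ± 20.1 CPM in Hep-Bmal1WT and 71.8 ± 17.8 CPM in Hep-Bmal1KO, did not pass with all libraries (log2 fold change −0.21, SE 0.07, adjusted p = 0.0578). It passed without the 7 libraries (−0.25, adjusted p = 0.0112) and in DESeq2 (−0.21, adjusted p = 0.0393). In the same comparison, 2 of 8 hepatocyte markers were lower, 4 of 11 macrophage markers were higher and 1 lower, and 2 of 4 neutrophil, 3 of 5 cholangiocyte, and 4 of 7 stellate cell markers were higher in Hep-Bmal1KO, and their part in the result was not tested. At single ZTs on cdHFD, 0 of 48 pairs of member and ZT were called by edgeR and 0 by DESeq2, and 11 had an unadjusted p under 0.05. Of all genes, 1.26% were called at ZT2, 0.875% at ZT6, 0.0129% at ZT10, 0% at ZT14, 0.129% at ZT18, and 0.199% at ZT22.

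The remaining members showed no genotype difference that passed on either diet. Nnmt had log2 fold changes of 0.20 (SE 0.16, adjusted p = 0.509) on NC and 0.23 (SE 0.18, adjusted p = 0.502) on cdHFD. Qprt and Nadsyn1, the members of de novo synthesis and of its last step, lay between 0.01 and 0.07 in both diets. The consumers were also close to 0, with Sirt1 at −0.15 (SE 0.13) and −0.16 (SE 0.11) and Parp1 at 0.13 (SE 0.08) and 0.07 (SE 0.07) on NC and cdHFD. Nadk on NC had −0.14 (SE 0.07, adjusted p = 0.158), which passed with sex as a covariate (−0.15, adjusted p = 0.0332). It also passed among males alone (−0.26, adjusted p = 0.00978) but not among females alone (−0.05, adjusted p = 0.827). The test of a genotype difference between the sexes, given below, called no member.

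The test of whether the genotype effect differed between the diets called 0 of 8 members, where 3.04% of all genes were called by edgeR. DESeq2 also called 0, and 1 member had an unadjusted p under 0.05. This was Nampt, with an effect on cdHFD that was 0.36 less negative on the log2 scale (SE 0.14, adjusted p = 0.157). Without the 7 libraries, this difference was 0.46 (adjusted p = 0.0231), to which the limit on leaving them out applies. The other 7 members had differences between −0.08 and 0.25.

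By diet, Nnmt had the largest fold change of the 8 members in both genotypes. Nnmt in Hep-Bmal1WT ranged from 34.7 to 234 CPM on NC with a median of 122 CPM, and from 9.36 to 41.4 CPM on cdHFD with a median of 19.4 CPM. In Hep-Bmal1KO it ranged from 49.6 to 410.0 CPM on NC, with a median of 135 CPM, and from 6.84 to 55.8 CPM on cdHFD, with a median of 21.8 CPM. The diets overlapped only at the edges in both genotypes. The falls were 6.12-fold in Hep-Bmal1WT (log2 fold change −2.61, SE 0.15, adjusted p = 1.87e-20) and 5.97-fold in Hep-Bmal1KO (−2.58, SE 0.22, adjusted p = 6.11e-15), which differed by 0.02 (SE 0.25, adjusted p = 0.985).

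Nmrk1 was the other member with a large fall on cdHFD. In Hep-Bmal1WT it went from a median of 29.8 CPM (13.1 to 88.5) to 19.5 CPM (7.87 to 37.5), with a log2 fold change of −0.90 (SE 0.12, adjusted p = 6.04e-09). In Hep-Bmal1KO it went from a median of 20.5 CPM (11.5 to 75.9) to 12.5 CPM (5.81 to 31.8), with −0.66 (SE 0.14, adjusted p = 7.98e-05). The ranges overlapped widely in both genotypes. Nampt, by contrast, had small differences of opposite sign, −0.23 in Hep-Bmal1WT (SE 0.10, adjusted p = 0.0488) and 0.14 in Hep-Bmal1KO (SE 0.10, adjusted p = 0.217). The fall in Hep-Bmal1WT missed the threshold without the 7 libraries (adjusted p = 0.0694), in DESeq2 (adjusted p = 0.0819), and without replicate 2, 3, or 4 (adjusted p from 0.0959 to 0.163). The difference in Hep-Bmal1KO passed without the 7 libraries (0.22, adjusted p = 0.0165) and without replicate 3 (0.25, adjusted p = 0.026).

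In all, 5 members were called in each genotype, all of them lower on cdHFD, where 55.7% of all genes were called in Hep-Bmal1WT (27.3% lower) and 62% in Hep-Bmal1KO (29.6% lower). Qprt fell from 162 ± 28.8 to 129.5 ± 14.3 CPM in Hep-Bmal1WT and from 169.5 ± 27.1 to 134 ± 19.2 CPM in Hep-Bmal1KO (log2 fold changes −0.32 and −0.34). Nadsyn1 fell from 12.3 ± 4.62 to 10.03 ± 2.26 CPM in Hep-Bmal1WT and from 12.2 ± 3.02 to 10.01 ± 1.68 CPM in Hep-Bmal1KO (−0.28 and −0.27, adjusted p = 0.0242 and 0.00523), and the former call was lost without the 7 libraries (adjusted p = 0.0894). Without replicate 1 or 2, both calls of Nadsyn1 were lost (adjusted p from 0.0829 to 0.139). Parp1 passed in Hep-Bmal1KO (−0.19, adjusted p = 0.0176), though not in DESeq2 (adjusted p = 0.0588) or without replicate 2 or 4 (adjusted p = 0.0602 and 0.0983), and it had −0.13 (adjusted p = 0.135) in Hep-Bmal1WT. Sirt1 had −0.14 (adjusted p = 0.373) and −0.15 (adjusted p = 0.251), and Nadk 0.07 (adjusted p = 0.207) and −0.01 (adjusted p = 0.929).

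The direction of the small diet differences depended on the scaling. When library totals replaced TMM, an alternative chosen after seeing the data, the median log2 fold change of all genes tested moved from 0.01 to 0.50 in Hep-Bmal1WT and from 0.02 to 0.50 in Hep-Bmal1KO. Nampt in Hep-Bmal1WT, Nadk in Hep-Bmal1KO, and Qprt, Nadsyn1, Sirt1, and Parp1 in both genotypes, then had positive values, each of them still below that median. Nnmt had −2.13 and −2.09 and Nmrk1 −0.41 and −0.18, so these 2 members kept their sign, but Nmrk1 in Hep-Bmal1KO no longer passed (adjusted p = 0.247). Of the members that turned positive, all passed as higher on this scale (adjusted p from 2.53e-08 to 0.0433) except Nadsyn1 in Hep-Bmal1WT (adjusted p = 0.0656).

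The livers on cdHFD also differed in the markers of their cell types. The 8 hepatocyte markers were lower in both genotypes, and their summed level ranged from 117300 to 215000 CPM on NC and from 55100 to 93510 CPM on cdHFD in Hep-Bmal1WT, and from 97440 to 216400 and from 50220 to 87830 CPM in Hep-Bmal1KO. The 11 macrophage markers were higher in both genotypes, with summed levels of 209 to 581 CPM on NC and 1012 to 2602 CPM on cdHFD in Hep-Bmal1WT, and of 177 to 594 and 1440 to 3022 CPM in Hep-Bmal1KO. No marker list was at 0 in a group. In bulk liver, fewer cells of a type and less RNA per cell cannot be told apart, and the part of these shifts in the diet differences of the members was not tested. On NC, where Nampt and Nmrk1 differed by genotype, 0 of the 11 macrophage markers and 2 of the 8 hepatocyte markers were called, the 2 of them lower, and 2 of 5 cholangiocyte markers were higher in Hep-Bmal1KO, with a list median of 0.58. The part of these markers in the genotype differences was not tested.

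**Figure D2:**
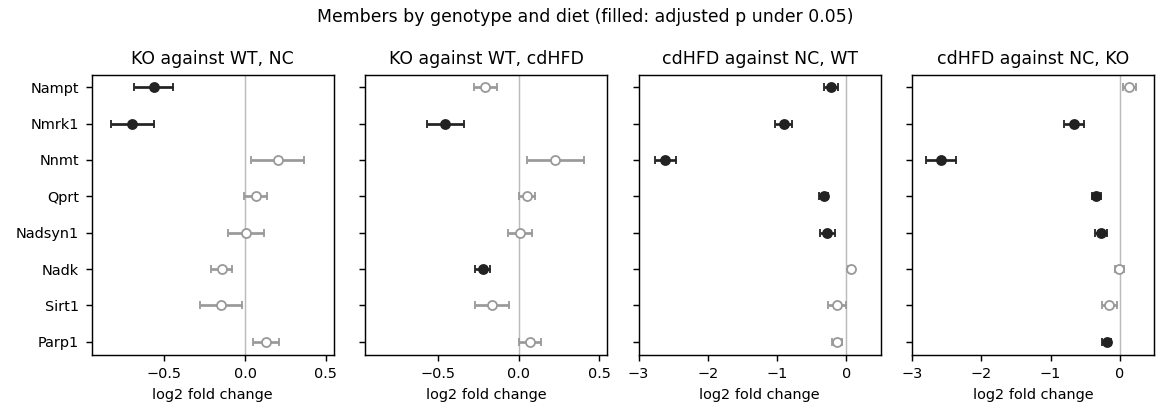
Log2 fold changes of the 8 members (points) with their SE (bars), by genotype within each diet and by diet within each genotype, with filled points where the adjusted p was under 0.05. Nampt and Nmrk1 lie at −0.57 and −0.70 for genotype on NC, and Nnmt at −2.61 and −2.58 for diet; the horizontal scale is wider in the diet panels.

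Rhythms were tested with a cosine and a sine term of 24 h in edgeR, and their amplitudes and peaks were fitted on variance-stabilized values, which are close to a log2 scale. In Hep-Bmal1WT on NC, 4 of 8 members were rhythmic, where 18.7% of all genes were. Nampt had an amplitude of 0.79 (SE 0.08) with a peak at ZT 14.6 (SE 0.37 h, adjusted p = 2.9e-07), and its mean at the highest ZT was 3.57 times that at the lowest. Nmrk1 had an amplitude of 0.61 (SE 0.15) with a peak at ZT 12.4 (SE 0.93 h, adjusted p = 0.00262) and a ratio of 3.61 between its highest and lowest ZT. Nadsyn1 peaked earlier, at ZT 10.1 (amplitude 0.39, SE 0.10, adjusted p = 0.0117). Nnmt peaked later, at ZT 19.8 (amplitude 0.61, SE 0.15, adjusted p = 0.0104), and lay lowest around ZT10. The calls of Nnmt and of Nadsyn1 were lost when replicate 3 was left out (adjusted p = 0.155 and 0.118).

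In Hep-Bmal1KO on NC, the only member called rhythmic was Sirt1, where 4.34% of all genes were. Its amplitude was 0.33 (SE 0.07) with a peak at ZT 10.8 (SE 0.82 h, adjusted p = 0.035). The 4 mice at ZT10 had 5.79, 6.73, 6.83, and 8.17 CPM, and the 4 at ZT2 had 1.78, 3.21, 3.31, and 5.67 CPM. These times had the highest and the lowest mean of the group and were picked for that, so the lack of overlap is a description only. The call was lost without the 7 libraries (adjusted p = 0.0643), in each sex alone, and whichever replicate was left out (adjusted p from 0.0553 to 0.213). Nampt had an amplitude of 0.13 (SE 0.12, adjusted p = 0.697) and Nmrk1 of 0.19 (SE 0.14, adjusted p = 0.377) in this group.

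Between the genotypes on NC, the rhythm of Nampt differed, and no other member was called. The joint test of the genotype by cosine and sine terms gave an adjusted p of 0.0231, where 0.386% of all genes were called. Without the 7 libraries the adjusted p was 0.000182, and the call was lost when replicate 1, 2, or 4 was left out (adjusted p from 0.112 to 0.341). In the CircaCompare model, the amplitude of Nampt was 0.66 lower in Hep-Bmal1KO (SE 0.14, unadjusted p = 2.21e-05, adjusted p = 0.0858 over all genes). Amplitudes differed at an unadjusted p under 0.05 in 3 members, where 4.12% of all genes did so. The others were Nmrk1, with an amplitude that was lower by 0.42 (SE 0.21, unadjusted p = 0.0476), and Sirt1, with one that was higher by 0.25 (SE 0.11, unadjusted p = 0.028). Nmrk1 missed this threshold without replicate 1, 2, or 4 (unadjusted p from 0.101 to 0.169), and Sirt1 without replicate 2 or 3 (0.139 and 0.0641).

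On cdHFD, Nampt and Nmrk1 were rhythmic in both genotypes, and their amplitudes in Hep-Bmal1KO differed from those in Hep-Bmal1WT by −0.03 (SE 0.10) and −0.08 (SE 0.17). In Hep-Bmal1WT, where 14.3% of all genes were rhythmic, 3 members were called. Nampt had an amplitude of 0.37 (SE 0.08) with a peak at ZT 11.8 (adjusted p = 0.00471), Nmrk1 of 0.48 (SE 0.11) with a peak at ZT 10.2 (adjusted p = 0.00226), and Nadsyn1 of 0.23 (SE 0.06) with a peak at ZT 7.53 (adjusted p = 0.0296). These calls were lost without replicate 1 for Nampt (adjusted p = 0.0519), without replicate 2 for Nmrk1 (0.0601), and without replicate 1, 2, or 4 for Nadsyn1 (0.111 to 0.166). In Hep-Bmal1KO, where 3.81% of all genes were rhythmic, 3 members were also called. Nampt had an amplitude of 0.34 (SE 0.06) with a peak at ZT 11.9 (adjusted p = 0.00623), and Nmrk1 of 0.40 (SE 0.13) with a peak at ZT 11.3 (adjusted p = 0.0358), a call that was lost without the 7 libraries (adjusted p = 0.0657) and whichever replicate was left out (adjusted p from 0.0509 to 0.205). Nampt in this group missed the threshold without replicate 2 (adjusted p = 0.0807).

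Nnmt was the third member called in Hep-Bmal1KO on cdHFD, with an amplitude of 0.89 (SE 0.16) and a peak at ZT 13.7 (SE 0.68 h, adjusted p = 0.000528). Its 4 mice at ZT14 had 27.3, 29.1, 51.8, and 53.2 CPM, and its 4 mice at ZT2 had 9.00, 9.63, 11.7, and 16.8 CPM. These times had the highest and the lowest mean of the group and were picked for that, so their lack of overlap is a description only. In Hep-Bmal1WT on the same diet its amplitude was 0.34 (SE 0.14, adjusted p = 0.0823), and the 4 mice at ZT14 had 9.36, 9.67, 30.3, and 41.4 CPM, where the highest came from 1 of the 7 libraries. The rhythm difference by genotype on cdHFD called 0 of 8 members in edgeR and 0 in DESeq2, where 0.431% of all genes were called, and 1 member had an unadjusted p under 0.05. This was Nnmt (adjusted p = 0.126), with an adjusted p of 0.0221 without the 7 libraries, to which the same limit applies. Its amplitude was 0.55 higher in Hep-Bmal1KO (SE 0.21, unadjusted p = 0.0117; 0.0931 without replicate 2), where 2.91% of all genes had a different amplitude.

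By diet, rhythm differences were called for Nampt in Hep-Bmal1WT and for Nnmt in Hep-Bmal1KO. Nampt in Hep-Bmal1WT (adjusted p = 0.000702, where 6.13% of all genes were called) lost 0.42 of amplitude on cdHFD (SE 0.11, unadjusted p = 0.000431) and peaked 2.79 h earlier (SE 0.90 h, unadjusted p = 0.00332), and 7.96% of all genes had a different amplitude. At ZT14, the 4 Hep-Bmal1WT mice on cdHFD had 87.3, 91.03, 96.2, and 98.1 CPM, each of them below the lowest of the 4 on NC. ZT14 had the highest mean of Nampt in Hep-Bmal1WT on NC, and diet was not tested at single ZTs. This lack of overlap is therefore a description only. Nnmt in Hep-Bmal1KO (adjusted p = 0.0258, where 0.907% of all genes were called) gained 0.55 of amplitude on cdHFD (SE 0.26, unadjusted p = 0.0418), and 4.26% of all genes had a different amplitude. This gain did not pass once adjusted over all genes. On NC, Nnmt was not called rhythmic in this genotype (amplitude 0.34, SE 0.21, adjusted p = 0.461), so no shift of its peak is given. The call of a rhythm difference was lost whichever replicate was left out (adjusted p from 0.0672 to 0.191). Whether the rhythm difference by genotype itself differed between the diets was tested after the rhythms had been seen, and Nampt did not pass (unadjusted p = 0.000597, adjusted p = 0.137, where 0.09% of all genes were called).

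**Figure D3:**
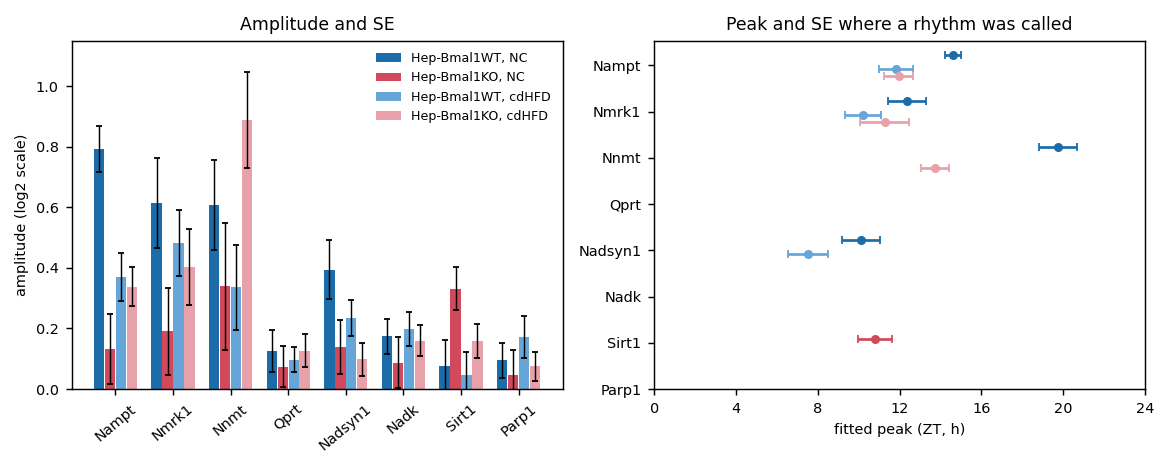
Left, fitted amplitude of each member (bars, log2 scale) with its SE in the 4 groups. Right, fitted peak in ZT hours with its SE where a rhythm was called; Nampt has an amplitude of 0.79 in Hep-Bmal1WT on NC and 0.13 in Hep-Bmal1KO on NC, and the peaks of Nnmt lie at ZT 19.8 in Hep-Bmal1WT on NC and ZT 13.7 in Hep-Bmal1KO on cdHFD.

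Qprt, Nadk, and Parp1 were not called rhythmic in any of the 4 groups. The mean of Qprt at its highest ZT was between 1.13 and 1.32 times that at its lowest, and that of Parp1 between 1.18 and 1.38 times. With all libraries, Nadk had its highest mean at ZT10 in each group. These means ran from 243 ± 39.6 CPM in Hep-Bmal1KO on cdHFD to 315 ± 33.99 CPM in Hep-Bmal1WT on cdHFD (SD, n = 4 each). In Hep-Bmal1KO on NC, the mice at ZT10 had 215, 217, 238, and 338 CPM, beside a mean of 240 CPM at ZT2. The highest of them was 1 of the 7 libraries nearer the other genotype, so ZT10 as the highest time in this group rests on that library. Nadk was called rhythmic in Hep-Bmal1WT on cdHFD by DESeq2 (adjusted p = 0.0335) but not by edgeR (adjusted p = 0.0578).

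**Figure D4:**
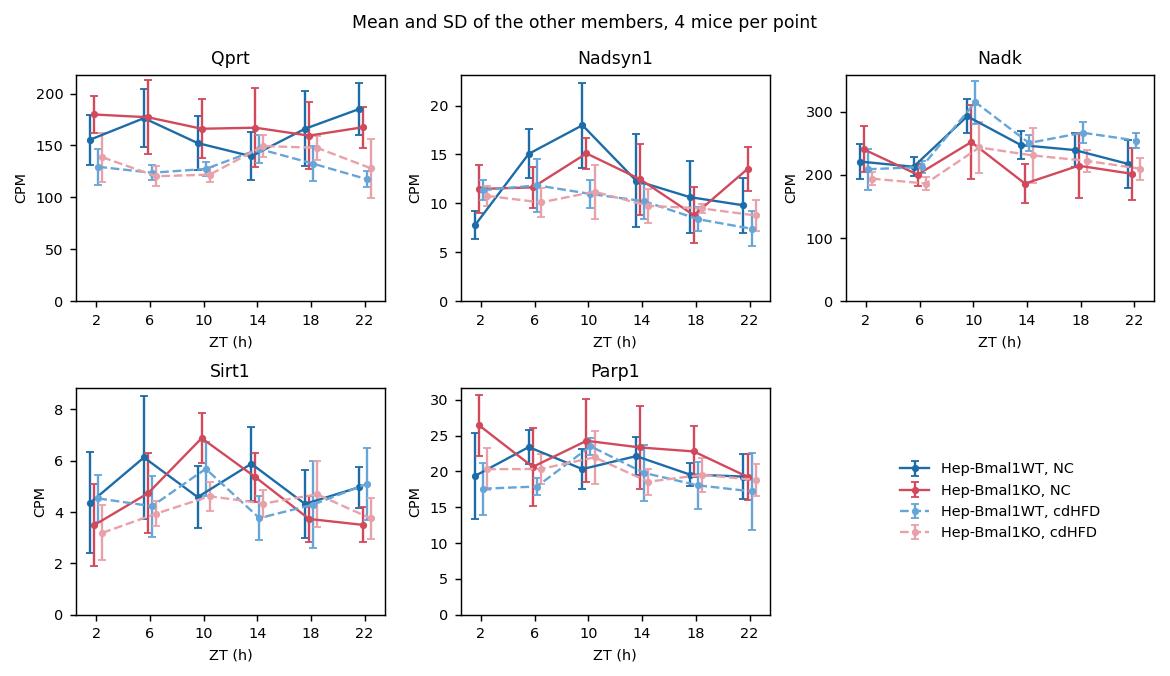
Mean CPM (vertical axes) with the SD of 4 mice against ZT in hours for Qprt, Nadsyn1, Nadk, Sirt1, and Parp1 in the 4 groups. Qprt lies lower on cdHFD than on NC at most ZTs. With all libraries, the mean of Nadk is highest at ZT10 in each group, which in Hep-Bmal1KO on NC rests on a single library.

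Males and females differed in 3 members, where 17.2% of all genes were called. With genotype, diet, and ZT held, Nampt was lower in males (log2 fold change −0.22, SE 0.05, adjusted p = 0.00155), Qprt was higher (0.17, SE 0.04, adjusted p = 0.000446), and Nadk was lower (−0.11, SE 0.04, adjusted p = 0.0268), a call that was lost when replicate 2, 3, or 4 was left out (adjusted p from 0.0886 to 0.321). The genotype effect did not differ between the sexes for a member at an adjusted p under 0.05. On NC, edgeR and DESeq2 each called 0 members and 2 had an unadjusted p under 0.05, where edgeR called 0.341% of all genes, and on cdHFD each called 0 members and 1 had an unadjusted p under 0.05, where 0% of all genes were called.

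The diet effect did differ between the sexes for Qprt and Nadk, in a test added after the effects within each sex had been seen. Qprt on NC was 183 ± 19.3 CPM in Hep-Bmal1WT males and 142 ± 21.4 CPM in females, and on cdHFD it was 128 ± 13.5 and 131 ± 15.8 CPM (SD, n = 12 each on NC, and 13 males and 11 females on cdHFD). Its log2 fold change by diet was 0.39 more negative in males of Hep-Bmal1WT (SE 0.11, adjusted p = 0.0297, 3.02% of all genes called) and 0.38 more negative in males of Hep-Bmal1KO (SE 0.11, adjusted p = 0.0348, 2.89% of all genes called). The latter missed the threshold without the 7 libraries (adjusted p = 0.0569). Nadk in Hep-Bmal1KO was 187 ± 24.7 CPM in males and 244 ± 39.9 CPM in females on NC, and 218 ± 37.3 and 211 ± 24.5 CPM on cdHFD (SD, n = 12 each). Its diet effect was −0.21 in females (adjusted p = 0.011) and 0.22 in males (adjusted p = 0.0389), a difference of 0.43 (SE 0.11, adjusted p = 0.0149).

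Of 46 further genes of NAD synthesis and use, 45 passed the filter, and Ido1 had 0 counts. By genotype on NC, 5 were higher and 4 lower in Hep-Bmal1KO, and their median log2 fold change was −0.04 against −0.01 for all genes. The 9 of 45 called compare with 12.5% of all genes, and the 4 lower with 5.45%. The higher genes were Kynu (0.54, SE 0.09), a kynureninase, Nmnat3 (0.52, SE 0.14), a mitochondrial adenylyltransferase, Pnp (0.51, SE 0.11), a purine nucleoside phosphorylase, Sirt5 (0.29, SE 0.08), a mitochondrial deacylase, and Naxe (0.28, SE 0.05), an epimerase of damaged NAD(P)H. The lower genes included Noct (−0.79, SE 0.19), which encodes a phosphatase of NADP and is a known output of the clock, and Naprt (−0.16, SE 0.05), the first enzyme of synthesis from nicotinic acid, beside Tnks2 (−0.26, SE 0.08). Nmrk2, the fourth, had a median of 0 CPM in each group, so its fitted value of −2.62 rests on few libraries. Without the 7 libraries, 15 of the 45 were called in place of 9. Calls over all genes rose as well, as given above, and the limit on leaving these libraries out applies.

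On cdHFD, 2 of the 45 were higher and 9 lower in Hep-Bmal1KO, where 9.67% of all genes were called and 4.92% were lower. The lower genes were Ido2 (−0.67, SE 0.11), Tdo2 (−0.38, SE 0.09), Haao (−0.24, SE 0.08), and Kmo (−0.20, SE 0.07) of the kynurenine route, Noct (−0.47, SE 0.14), Naprt (−0.25, SE 0.06), and the ADP-ribosyltransferases Parp14 (−0.37, SE 0.08), Parp16 (−0.34, SE 0.08), and Parp9 (−0.27, SE 0.08). The kynurenine route thus held 4 lower genes of 7 on cdHFD, with a median of −0.22, and 0 lower and 1 higher of 7 on NC, with a median of −0.12. Tdo2, which encodes the hepatic dioxygenase that starts the route, had −0.12 (SE 0.07, adjusted p = 0.291) on NC. The higher genes were Aox3 (0.28, SE 0.07) and Slc12a8 (1.08, SE 0.29), the latter with medians of 0.308 and 0.733 CPM.

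By diet, 9 of the 45 were higher and 23 lower in Hep-Bmal1WT, and 11 higher and 25 lower in Hep-Bmal1KO. Of all genes, 55.7% and 62% were called, and 27.3% and 29.6% were lower. All 7 genes of the kynurenine route tested were lower on cdHFD in both genotypes, with medians of −1.57 and −1.63, beside medians of 0.01 and 0.02 over all genes tested. In the same comparisons, the 8 hepatocyte markers were all lower, with medians of −1.13 in Hep-Bmal1WT and −1.02 in Hep-Bmal1KO. The part of this shift in the falls of the route was not tested. Haao, which makes the precursor of quinolinic acid, had −1.82 (SE 0.06) and −2.19 (SE 0.08), Tdo2 −1.38 (SE 0.09) and −1.63 (SE 0.07), and Kmo −0.96 (SE 0.06) and −1.23 (SE 0.06) in Hep-Bmal1WT and Hep-Bmal1KO. Nadk2, the mitochondrial NAD kinase, fell as well (−0.91, SE 0.06 and −0.88, SE 0.06), and so did Sirt3 (−0.77, SE 0.07 and −0.89, SE 0.06), a mitochondrial deacetylase, and Nmnat1 (−0.42, SE 0.05 and −0.43, SE 0.06), the nuclear adenylyltransferase. The last of these had positive values with library totals.

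The 9 genes higher on cdHFD in Hep-Bmal1WT were 7 ADP-ribosyltransferases and 2 glycohydrolases, which consume NAD. Called in either direction were 8 of 14 ADP-ribosyltransferases in that genotype, where 55.7% of all genes were. Of the other consumers, Sarm1, also a glycohydrolase, was lower in both genotypes (−1.35, SE 0.58 and −1.56, SE 0.57), and of the 6 sirtuins beside Sirt1, 4 were lower and 0 higher in Hep-Bmal1WT and 4 were lower and 1 higher in Hep-Bmal1KO. Cd38, a glycohydrolase that cleaves NAD, rose by 1.18 (SE 0.08) and 1.32 (SE 0.10) on the log2 scale, Bst1, its relative, by 1.054 (SE 0.34) and 1.28 (SE 0.32), and Parp8 by 2.23 (SE 0.20) and 1.99 (SE 0.19). Of the 14 ADP-ribosyltransferases listed beside Parp1, 7 were higher and 1 lower in Hep-Bmal1WT, and 7 higher and 2 lower in Hep-Bmal1KO. Of all 15548 genes tested, 4410 were higher and 4247 lower in Hep-Bmal1WT, and 5031 higher and 4601 lower in Hep-Bmal1KO. Cd38 is known from immune cells, and the macrophage markers rose in the same livers, with a median log2 fold change of 2.53 and 2.67, and their part in these rises was not tested. Sirt6, a nuclear deacylase, was higher in Hep-Bmal1KO (0.62, SE 0.20) and had 0.23 in Hep-Bmal1WT, which did not pass.

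**Figure D5:**
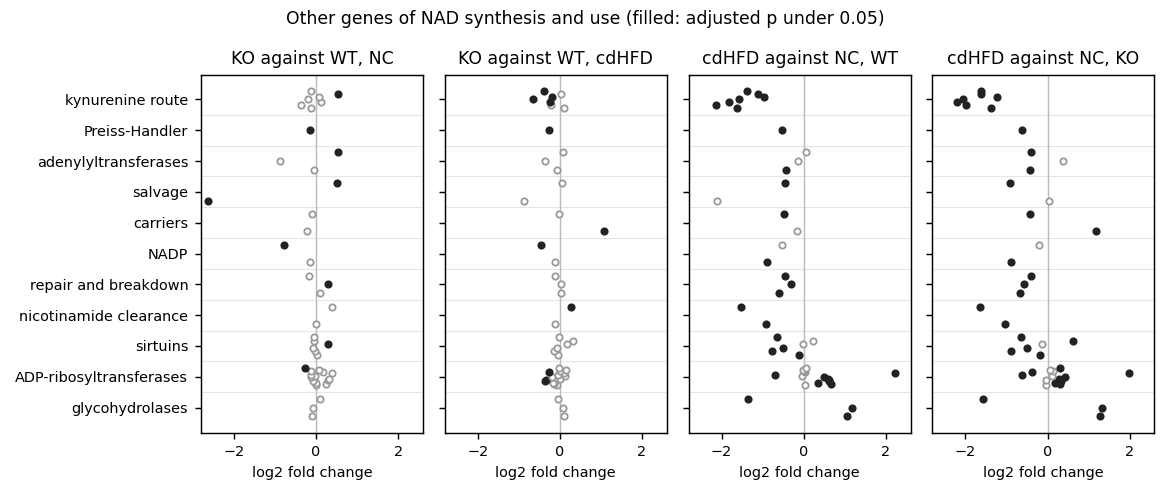
Log2 fold changes of the 45 further genes (points) by route or family, by genotype within each diet and by diet within each genotype, with filled points where the adjusted p was under 0.05. The 7 genes of the kynurenine route lie between −2.14 and −0.96 by diet in Hep-Bmal1WT and between −2.19 and −1.23 in Hep-Bmal1KO.

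Rhythms were called in 15 of the 45 further genes in Hep-Bmal1WT on NC, 15 in Hep-Bmal1WT on cdHFD, 4 in Hep-Bmal1KO on NC, and 5 in Hep-Bmal1KO on cdHFD. The shares of all genes called in these groups were 18.7%, 14.3%, 4.34%, and 3.81%. The counts in both Hep-Bmal1WT groups include Nmrk2, whose values rest on few libraries, and its fitted amplitude on cdHFD was 0.11 (SE 0.11). Noct in Hep-Bmal1WT on NC had an amplitude of 1.34 (SE 0.22) and a peak at ZT 13.9 (SE 0.62 h), close in time to Nampt. The genes of the kynurenine route called in that group, 6 of 7, peaked in the late dark phase, from ZT 20.5 for Kmo to about lights on for Kynu, with amplitudes from 0.26 for Haao to 0.76 for Afmid. Acmsd and Ido2 of this route were also called in Hep-Bmal1KO on NC.

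The genes whose pattern was most like each member's were found by Pearson correlation over 24 means of log2 CPM, 1 for each genotype, diet, and ZT. These means share diet and cell makeup, and the values are descriptions. Nampt was most like Csnk1g3 (r = 0.857), Slc16a12 (0.850), and Gm826 (0.841), and Nmrk1 like Fitm2 (0.920), Trak1 (0.914), and Tnks1bp1 (0.912). Nnmt was most like Aass (0.949), Acly (0.948), and Tmem256 (0.947), and Qprt like Gm36264 (0.903), Acly (0.900), and Hgd (0.900). Nadsyn1 was most like Fgfrl1 (0.861), Morn1 (0.835), and Slc7a2 (0.832), and the genes most like Nadk included Mgll (0.824) and Nhlrc2 (0.808). Parp1 was most like Ahsg (0.831), Dnm1l (0.831), and Itih2 (0.828). Sirt1 had no gene above 0.692, which was Gm26621, followed by Prr36 (0.687). Among the members, the highest correlation was 0.82 between Nnmt and Qprt, and Nampt and Nmrk1 had 0.58.

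In GRCm38.p6, as RefSeq gives it, Nampt lies at chr12:32820335-32853369, where it overlaps Gdap10, and Nmrk1 at chr19:18632016-18652428. Nnmt lies at chr9:48538002-48607655, Qprt at chr7:127107770-127122029, and Nadsyn1 at chr7:143795589-143822862. Nadk lies at chr4:155562381-155591001, Sirt1 at chr10:63319005-63339035, and Parp1, which overlaps Gm31986 and Mir6904, at chr1:180568891-180600999. Whether the counting used strand is not given in the sources used here, so reads of Nampt and Parp1 could not be told apart from reads of the genes that overlap them.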

How the data were processed

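BRB-seq was run on the liver of each of 96 mice. The authors deposited 1 table of raw counts per gene. Their processing notes name mm10, STAR, HTSeq, featureCounts, and DESeq2, with no versions. UMI collapsing is not given in the sources used here. SDs and SEs are across mice and hold both biological and counting variation. The 5 entries that name no gene, 22.57% to 39.86% of reads, were left out.

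Group, ZT, and sex came from the labels, which give no replicate numbers. Replicates were numbered in accession order, which goes with sex. On NC, replicates 1 and 2 were male and replicates 3 and 4 female in each group, and most groups on cdHFD had the same order. Leaving out a replicate number on NC therefore took away mice of a single sex and left fewer mice at each ZT. Mice are separate animals, and no pair of libraries agreed within sampling noise (lowest chi-square per gene 4.243 over 144 pairs). Counts were TMM-scaled (factors 0.7665 to 1.351) and tested with edgeR 4.0.16 (quasi-likelihood, Benjamini-Hochberg) in R 4.3.3, with DESeq2 1.42.0 as an alternative. Log2 fold changes are Hep-Bmal1KO against Hep-Bmal1WT, or cdHFD against NC. Amplitudes and peaks came from a cosinor on DESeq2's variance-stabilized values, compared with the CircaCompare model by least squares. Log2 CPM used a prior count of 2. The scripts were tested on simulated data.

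The members and the lists of pathway and marker genes were chosen with earlier results of these data known. Pathway genes were named if they had the 4 smallest p-values in a direction of a comparison, with Tdo2, Naprt, Nmnat1, Nmnat3, Noct, Sirt3, Sirt6, and Cd38 always eligible; the genes otherwise named were chosen after their values were seen. Sequences and promoter motifs were not analysed here. For each member, the 3 genes with the highest correlation were to be named, and 2 of them, for Nadk and Sirt1, are not reported here.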

Additional observations from a re-analysis of the deposited data

Results flagged for a closer look

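Of 192 sets of 4 mice, 1 for each member, genotype, diet, and ZT, 11 held a mouse far from the others by Dixon's criterion, where chance gives about 1 in 20. For Nampt these were the lowest Hep-Bmal1WT mouse on NC at ZT18 (85.3 CPM, against 121 to 128 CPM in the others), which is 1 of the 7 libraries nearer the other genotype, and the highest Hep-Bmal1KO mouse on NC at ZT2 (67.3 CPM). For Nmrk1 they were Hep-Bmal1WT mice on NC, the lowest at ZT2 (13.1 CPM) and the highest at ZT14 (49.9 CPM). For Nnmt they were the highest at ZT6 in Hep-Bmal1WT on cdHFD (20.6 CPM) and in Hep-Bmal1KO on NC (121 CPM, against 56.8 to 57.9 CPM in the others). For Nadsyn1 they were at ZT6 on cdHFD, the lowest Hep-Bmal1WT mouse (7.83 CPM) and the highest Hep-Bmal1KO mouse (12.3 CPM). In Hep-Bmal1KO on cdHFD at ZT18, they were the lowest mice for Nadk (196 CPM) and Sirt1 (2.78 CPM). For Parp1 it was the highest Hep-Bmal1KO mouse on NC at ZT6 (28.8 CPM).

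The genotype effect differed between the diets in 7 of the further genes of NAD synthesis and use, as the log2 fold change on cdHFD minus that on NC, where 3.04% of all genes were called. The differences were −0.37 for Haao (adjusted p = 0.0175), −0.45 for Pnp (0.0284), −0.51 for Kynu (0.00276), −0.26 for Naxe (0.0104), −0.48 for Ido2 (0.0402), −0.42 for Parp9 (0.0117), and −0.64 for Parp16 (0.00626), each from edgeR and adjusted over all genes tested. The diet effect differed between the sexes for Qprt, with a log2 fold change in males minus that in females of −0.39 in Hep-Bmal1WT and −0.38 in Hep-Bmal1KO, and for Nadk in Hep-Bmal1KO, with 0.43.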

How the results depend on the processing

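The alternatives changed counts of members called at an adjusted p under 0.05 as follows, and the cause was not tested unless it lies in the smaller number of mice. Apart from genotype on NC without the 7 libraries, calls over all genes under these alternatives are not given here. The counts therefore do not tell a change in the members from a change over all genes. Among females alone, the counts were 0 for genotype on NC (in place of 2), 1 for genotype on cdHFD (2), 2 for diet in Hep-Bmal1WT (5), 3 for diet in Hep-Bmal1KO (5), 0 for rhythm on cdHFD in Hep-Bmal1WT (3) and in Hep-Bmal1KO (3), 0 for rhythm in Hep-Bmal1KO on NC (1), and 0 for the rhythm difference by genotype on NC (1) and by diet in Hep-Bmal1KO (1). Among males alone, they were 1 for genotype on cdHFD, 1 for genotype by diet (in place of 0), 2 for rhythm in Hep-Bmal1WT on NC (4), 0 for rhythm in Hep-Bmal1KO on NC, 0 for the rhythm differences by genotype on NC and by diet in Hep-Bmal1WT, and 1 for that by genotype on cdHFD (0). Without the 7 libraries, they were 3 for diet in Hep-Bmal1WT, 1 for genotype by diet, 0 for rhythm in Hep-Bmal1KO on NC, 1 for the rhythm difference by genotype on cdHFD, and 6 pairs of member and single ZT on NC (in place of 3). Sex as a covariate also gave 6 pairs. With no filter beyond 1 count, rhythm in Hep-Bmal1KO on NC had 0, the rhythm difference by genotype on cdHFD 1, single ZTs on cdHFD 3 pairs (in place of 0), and genotype by sex on NC 1 (0). With at least 10 counts in 24 libraries, the rhythm difference by genotype on NC had 0. A cosinor F test gave 0 for the rhythm differences by genotype on NC and by diet in Hep-Bmal1KO, and an unadjusted p under 0.01 gave 1 for that by genotype on cdHFD. Members with a different amplitude by genotype numbered 0 on NC (in place of 3) and 0 on cdHFD (1) with an adjusted p, 1 on NC in each sex alone, and 0 on cdHFD in females. Of the 45 pathway genes, 3 were called by genotype on NC in females and 15 without the 7 libraries (in place of 9), and 3 on cdHFD in males and 4 in females (in place of 11).

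With library totals, the log2 fold changes by diet in Hep-Bmal1WT turned to 0.27 for Nampt, 0.17 for Qprt, 0.22 for Nadsyn1, 0.36 for Sirt1, 0.36 for Parp1, 0.073 for Nmnat1, 0.037 for Pnp, 0.0043 for Slc25a51, 0.19 for Naxe, 0.041 for Nudt12, 0.38 for Sirt2, 0.48 for Sirt5, 0.46 for Parp4, and 0.49 for Tnks. In Hep-Bmal1KO they turned to 0.14 for Qprt, 0.21 for Nadsyn1, 0.47 for Nadk, 0.33 for Sirt1, 0.29 for Parp1, 0.049 for Nmnat1, 0.084 for Nmnat3, 0.061 for Slc25a51, 0.078 for Nudt12, 0.30 for Sirt2, 0.33 for Sirt5, 0.0897 for Parp9, 0.45 for Parp10, and 0.44 for Parp16. Nadk by diet in Hep-Bmal1KO males turned to 0.22, Nmrk2 by genotype on NC in males to 0.32, and Nmrk2 by diet in Hep-Bmal1KO ranged from −1.92 to 1.36 when a replicate number was left out. Among 5256 values of single genes under an alternative, a further 236 changed sign and were called in neither fit.

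Leaving out each replicate number in turn gave 2 to 2 members called for genotype on NC, 1 to 2 on cdHFD, 3 to 4 for diet in Hep-Bmal1WT, and 3 to 6 in Hep-Bmal1KO. It gave 2 to 4 for rhythm in Hep-Bmal1WT on NC, 1 to 3 on cdHFD, 0 to 0 in Hep-Bmal1KO on NC, and 1 to 2 on cdHFD. The rhythm differences held 0 to 1 by genotype on NC, 1 to 1 by diet in Hep-Bmal1WT, and 0 to 0 by diet in Hep-Bmal1KO. Single ZTs on NC held 1 to 4 pairs, the sex effect 2 to 3 members, and different amplitudes 2 to 2 members on NC and 0 to 1 on cdHFD. Pathway genes called numbered 5 to 9 and 5 to 11 by genotype on NC and cdHFD, and 29 to 32 and 33 to 35 by diet in Hep-Bmal1WT and Hep-Bmal1KO. Calls over all genes in these fits are not given here, so the same limit applies. No paired analysis was possible because the labels carry no replicate numbers. Depth limits most the members with few counts, such as Sirt1, with group means of 4.08 to 5.04 CPM. Library totals, the rhythm difference between diets and genotypes, and diet by sex were chosen after seeing the data.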
